A study of Homo sapiens with 12 samples.

Results

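The genes described here are 32 genes of the oxidant response governed by the transcription factor NRF2. They comprise NFE2L2, which encodes NRF2, its inhibitor KEAP1, small MAF partner proteins, and enzymes and transporters known as NRF2 targets. They were taken by gene symbol from the annotation of the array platform, and a probe was measured where its deposited detection p-value was under 0.05 on at least 4 of 12 arrays. A probe was named for 31 of the 32 genes, and 30 genes were measured, of 10891 genes measured in all. The probe of AKR1C1, an aldo-keto reductase, was detected on 0 of 12 arrays, and OSGIN1, an oxidant-induced growth inhibitor, was not analysed here. Each of the 30 genes was read from 1 probe, the brightest of its detected probes, and all 30 of these probes were detected on 12 of 12 arrays.

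The RNA came from Huh7, an established human hepatoma line, and was read on Illumina bead arrays in 3 groups of 4. One group received no protein, the second recombinant human erythroferrone (ERFE) at 10 µg/ml, and the third recombinant mouse ERFE at 10 µg/ml, each with RNA taken at 24 h. ERFE, a hormone made by erythroblasts, binds bone morphogenetic proteins and lowers hepcidin, and the design asks what either protein does to the transcripts of these cells. The controls received no other protein and no vehicle that the labels mention, and all arrays are of 1 cell line. A pair of mouse ERFE arrays carries the replicate number 3 and is called 3-A4 and 3-B4 after the code in their titles. Whether replicate arrays stem from separate cultures is not given in the labels, so p-values cover array-to-array spread alone, which may be technical. In bulk RNA, fewer cells with a transcript and less of it per cell cannot be told apart.

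NRF2 is made all the time and, in unstressed cells, is bound by KEAP1 in the cytoplasm and handed to a ubiquitin ligase for destruction. Oxidants and electrophiles modify cysteines of KEAP1, which frees NRF2 to enter the nucleus and, paired with a small MAF protein, to bind antioxidant response elements near genes for glutathione supply, thioredoxin recycling, NADPH supply, heme breakdown and detoxification. In the liver this program handles reactive drug metabolites and iron-linked oxidants, and in some liver cancers it is active without stress. The control acts mostly on the NRF2 protein, which these arrays do not measure.

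The element that NRF2 binds is shown here because it is how NRF2 is known to reach its targets. Its core was searched as TGACNNNGC on both strands of RefSeq promoter windows of assembly GRCh38.p14, from 250 bases before to 50 after each gene's start. Of the 32 genes 20 had a window in that table, and 7 of the 20 (35%) held the core, against 13.3% of all 35116 windows. The stretches below are written 5′ to 3′ on the gene's strand, with the 9 bases of the match in capitals. In ME1 the match reads along the gene, and in the others it lies on the opposite strand, so that the capitals show its reverse complement. These are letter matches in a narrow window, and nothing was measured of NRF2 at them.
GCLM, chr1:93909445-93909475, minus strand: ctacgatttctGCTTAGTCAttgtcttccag
ME1, chr6:83431169-83431199, minus strand: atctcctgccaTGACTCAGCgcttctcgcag
GPX2, chr14:64942848-64942878, minus strand: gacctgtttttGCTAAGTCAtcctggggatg
PGD, chr1:10398852-10398882, plus strand: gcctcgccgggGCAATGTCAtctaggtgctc
CBR1, chr21:36069854-36069884, plus strand: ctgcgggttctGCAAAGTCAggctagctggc
The match began 34 bases before the start in GCLM, which encodes the modifier subunit of the enzyme that limits glutathione synthesis. ABCC4 and PIR held a match too, and ME1 held another. SRXN1 and AKR1C2, whose values are given below, had a window with no match.

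No NRF2 gene passed the test in any comparison. By limma over all 10891 genes, with an adjusted p under 0.05, 0 of 30 NRF2 genes passed with human ERFE (0.248% of all genes did), 0 of 30 with mouse ERFE (0.22%) and 0 of 30 between the proteins (0.00918%). Comparing the mean of both ERFE groups with untreated cells, 0 of 30 passed (0.459%). With human ERFE, 5 of 30 had an unadjusted p under 0.05, against 6.98% of all genes, and these were AKR1B10, AKR1C3, HMOX1, SRXN1 and AKR1C2, all with a lower mean. With mouse ERFE, 4 of 30 did, against 11.5% of all genes, and these were KEAP1, SRXN1, HMOX1 and AKR1B10, again all with a lower mean. The members' shares, 16.7% and 13.3%, stand beside those backgrounds with no test of the list. Both comparisons use the same 4 untreated arrays, so their values stand side by side and are not separate evidence.

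Most of the genes had small negative log2 fold changes. With human ERFE 24 of 30 (80%) were below 0, against 48.4% of all genes, and the median was -0.08, against 0.01 over all genes. With mouse ERFE 24 of 30 were below 0, against 50.8%, and the median was -0.10, against -0.003. For the mean of both groups 26 of 30 (86.7%) were below 0, against 50.1%, with 5 under an unadjusted p of 0.05 (SRXN1, HMOX1, AKR1B10, KEAP1 and AKR1C3), against 10.5%. These signs depend on scaling. With arrays centred on their medians in place of quantile normalization, the median of all genes was 0.08 with human ERFE, 17 of 30 NRF2 genes were below 0, and their median was -0.03. Relative to the median of all genes, the NRF2 median was -0.08 in the main scaling and -0.10 with median centring for human ERFE, and -0.09 and -0.10 for mouse ERFE.

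**Figure D1:**
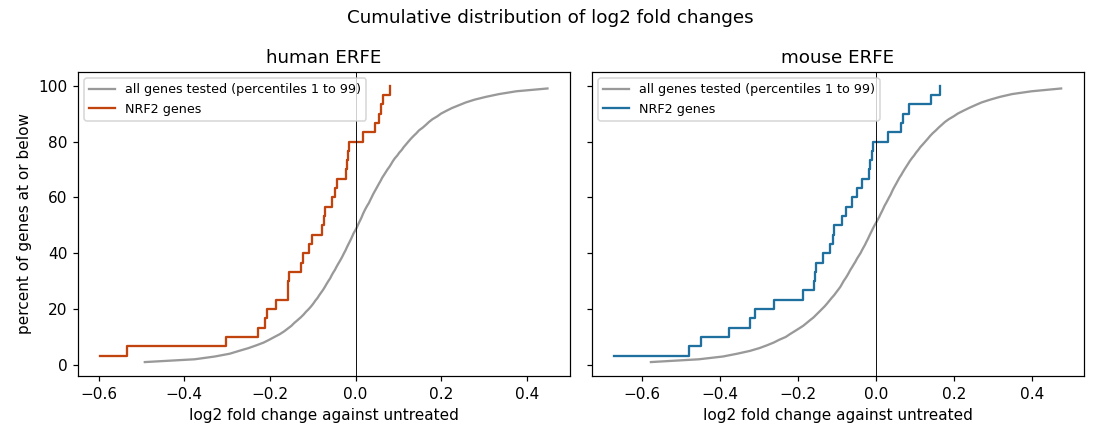
The cumulative percent of genes (vertical axis) is plotted against the log2 fold change from untreated cells (horizontal axis) for the 30 NRF2 genes (stepped line) and percentiles 1 to 99 of all genes tested (grey line), at left for human ERFE and at right for mouse ERFE. In both panels the stepped line crosses 0 at 80%, where the line of all genes is at 48.4% and 50.8%.

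Among the regulators, NFE2L2 itself varied within each group as much as between them. Its log2 signal on the untreated arrays was 10.66, 10.24, 10.30 and 10.27 in the order of their replicate numbers. On the human ERFE arrays it was 9.79, 10.04, 10.61 and 10.21, and on the mouse ERFE arrays 10.60, 10.37, 10.04 and 9.84. The groups overlapped over most of their ranges, with the highest array at 10.66, 10.61 and 10.60. Log2 fold changes were -0.21 (95% interval -0.62 to 0.20, limma adjusted p = 0.893) with human ERFE and -0.15 (-0.56 to 0.26, adjusted p = 0.847) with mouse ERFE. Single arrays moved both values: leaving out 1 array gave -0.35 (without human ERFE replicate 3) to -0.083 (without human ERFE replicate 1) for human ERFE. For mouse ERFE it gave -0.28 (without mouse ERFE replicate 1) to -0.030 (without array 3-B4), with -0.096 without 3-A4. Without untreated replicate 1 the values were -0.11 and -0.057.

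KEAP1, the adaptor that holds NRF2 for degradation, had the smallest adjusted p of the 30 genes with mouse ERFE. Its log2 signal was 10.75, 10.60, 10.63 and 10.45 on the untreated arrays, 10.51, 10.52, 10.51 and 10.28 on the human ERFE arrays and 9.92, 10.29, 10.10 and 10.32 on the mouse ERFE arrays. All 4 mouse ERFE arrays lay below all 4 untreated ones, a separation that 4.02% of all genes showed, while the human ERFE arrays overlapped both other groups. The log2 fold change with mouse ERFE was -0.45 ± 0.11 (SE), or 1.37-fold lower, with an adjusted p of 0.103. A second KEAP1 probe gave -0.36 for mouse ERFE and -0.19 for human ERFE, beside -0.45 and -0.16 at the probe tested. Other settings of the analysis brought KEAP1 past the threshold with mouse ERFE, at an adjusted p of 0.0321 with no background correction and 0.0295 with a variance trend and robust estimation. In these settings calls over all genes rose too, from 8 higher and 16 lower to 25 and 54 and to 19 and 46.

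The remaining regulators gave no call. MAFG, a small MAF partner of NRF2, had a log2 signal of 6.71, 6.90, 7.25 and 6.82 on the untreated arrays, 7.14, 6.81, 6.74 and 6.92 with human ERFE, and 6.35, 6.39, 6.65 and 6.999 with mouse ERFE. The arrays 1, 2 and 3-A4 of mouse ERFE lay below all untreated ones, and 3-B4 lay among them. Its log2 fold changes were -0.02 and -0.32 (limma adjusted p = 0.995 and 0.459), and a second probe gave -0.00 and -0.41. MAFF, another small MAF protein, ranged from 6.89 to 7.87 over the 12 arrays and had -0.07 with human and -0.26 with mouse ERFE. SQSTM1, a selective autophagy receptor that can draw KEAP1 away from NRF2, had 0.06 and -0.09.

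**Figure D2:**
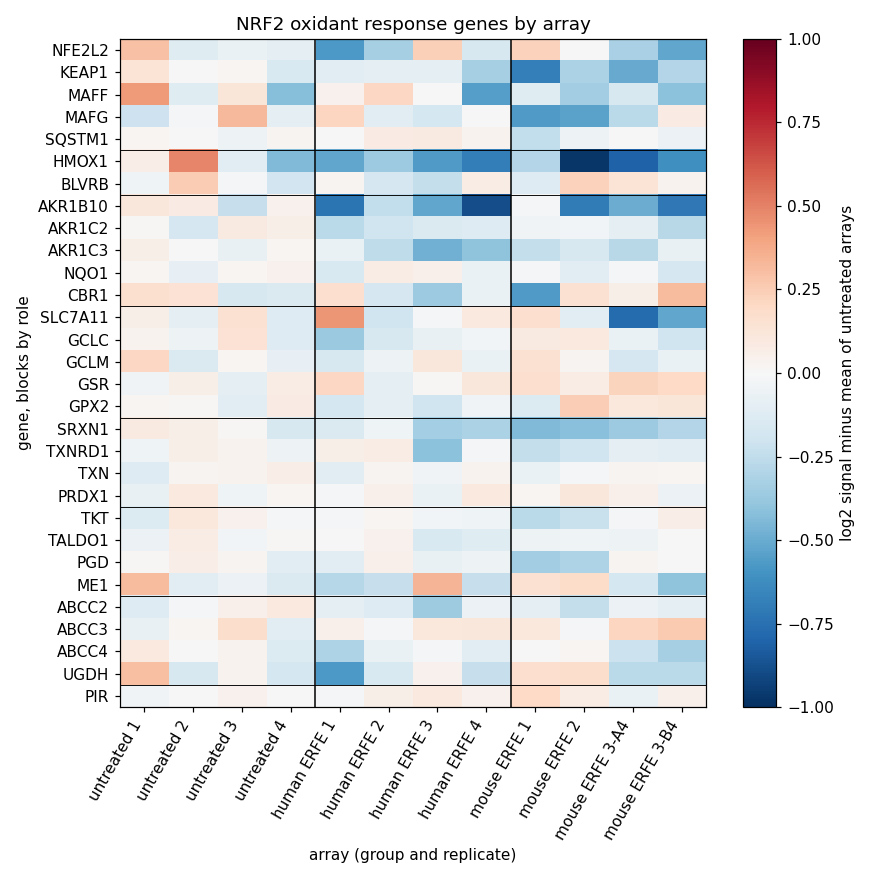
Each cell shows the log2 signal of 1 gene (rows, in blocks by role) on 1 array (columns, untreated, human ERFE, mouse ERFE) minus the mean of the 4 untreated arrays. HMOX1, AKR1B10 and SRXN1 are blue on nearly all ERFE arrays and KEAP1 on the mouse ERFE arrays, while TXN and PRDX1 are near white throughout.

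HMOX1, the inducible heme oxygenase that opens the heme ring, differed most among the 30 genes with mouse ERFE in size and had the widest range over the 12 arrays (1.46). The log2 signal was 8.72, 9.14, 8.54 and 8.22 on the untreated arrays, 8.14, 8.30, 8.09 and 7.96 with human ERFE and 8.37, 7.68, 7.85 and 8.05 with mouse ERFE. Untreated replicate 4 lay within the range of both ERFE groups, and the other untreated arrays lay above all 8 ERFE arrays. Group means were 8.66 ± 0.39, 8.12 ± 0.14 and 7.99 ± 0.29 (SD, n = 4 each). The log2 fold change was -0.53 with human ERFE, 1.45-fold lower with an interval of -0.93 to -0.14 and a limma adjusted p of 0.533. With mouse ERFE it was -0.67, 1.59-fold lower with an interval of -1.07 to -0.27 and an adjusted p of 0.171. Without untreated replicate 4 it was -0.82 with mouse ERFE (adjusted p = 0.0448) and -0.75 for the mean of both groups (adjusted p = 0.0427), against -0.60 (adjusted p = 0.162) with all arrays. Leaving out that array also raised the calls over all genes with mouse ERFE, from 8 higher and 16 lower to 75 and 81. For the mean of both groups those calls rose from 24 and 26 to 87 and 46. Without untreated replicate 2, the array with the highest HMOX1, the HMOX1 log2 fold change was -0.37 with human ERFE (adjusted p = 0.859), -0.51 with mouse ERFE (adjusted p = 0.405) and -0.44 for the mean of both groups (adjusted p = 0.460).

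Untreated replicate 4 also differed from the other untreated arrays in transcripts of MHC class II, genes of antigen-presenting cells. The mean log2 signal of 5 measured MHC class II genes was 8.997, 9.18, 8.49 and 5.66 on the untreated arrays, 8.21, 6.46, 7.84 and 6.47 with human ERFE and 8.99, 6.62, 6.04 and 6.17 with mouse ERFE. Of 9 listed markers 5 were measured, and HLA-DRB1, HLA-DPB1 and CIITA were detected on 0 of 12 arrays. Within the untreated and the mouse ERFE groups, the array with the highest HMOX1 signal was also the one highest in MHC class II, while in the human ERFE group it was the lowest. In a fit with this level as a covariate, HMOX1 had -0.40 with human and -0.50 with mouse ERFE, SRXN1 -0.20 and -0.36, AKR1B10 -0.54 and -0.41, and 0 of 30 genes passed in either comparison. The NRF2 medians with that covariate were -0.07 and -0.09, with 23 and 20 of 30 genes below 0.

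**Figure D3:**
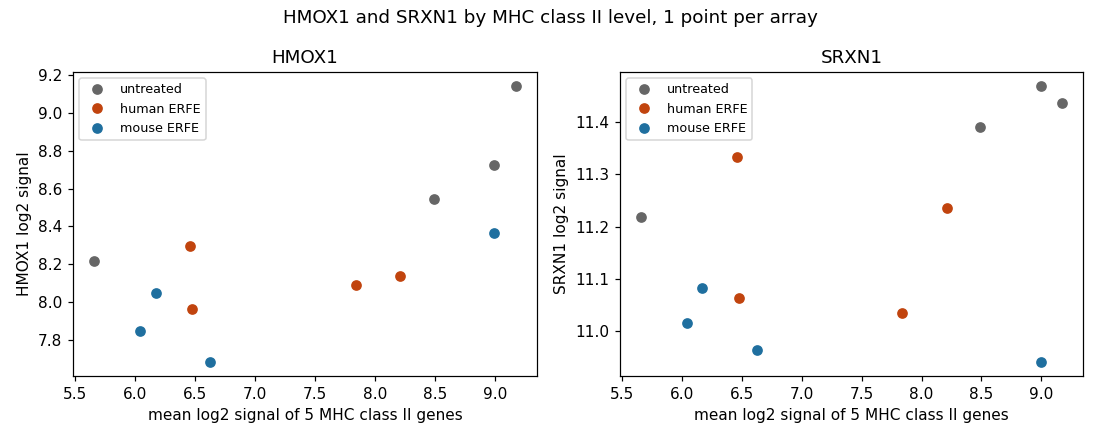
The log2 signal of HMOX1 (left) and SRXN1 (right) is plotted against the mean log2 signal of 5 MHC class II genes, with 1 point per array coloured by group. Untreated replicate 4, at an MHC class II level of 5.66, has the lowest HMOX1 (8.22) and SRXN1 (11.22) of the untreated arrays.

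BLVRB, a biliverdin reductase that acts after heme oxygenase, did not share the difference. Its log2 signal lay between 9.31 and 9.76 on untreated, 9.26 and 9.57 on human ERFE and 9.38 and 9.74 on mouse ERFE arrays. The fold changes were -0.08 and 0.07 on the log2 scale, with intervals of -0.33 to 0.17 and -0.18 to 0.32.

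Of the reductases, AKR1B10, which reduces retinal and reactive aldehydes and is often abundant in liver cancer, had the largest difference with human ERFE. Its log2 signal was 8.02, 7.99, 7.68 and 7.95 on the untreated arrays, 7.18, 7.66, 7.39 and 7.02 with human ERFE and 7.89, 7.22, 7.42 and 7.20 with mouse ERFE. All 4 human ERFE arrays lay below the 4 untreated ones, narrowly for human ERFE replicate 2 (7.66 against 7.68), and 1.74% of all genes had such a separation. Of the mouse ERFE arrays, replicate 1 lay among the untreated ones and the other 3 below them. The log2 fold changes were -0.60 ± 0.17 (SE, adjusted p = 0.370 by limma), 1.51-fold lower, and -0.48 ± 0.17 (adjusted p = 0.296), 1.39-fold lower. Without mouse ERFE replicate 1 the latter was -0.63 (adjusted p = 0.152). With no background correction the log2 fold changes were -0.35 and -0.29, and neither passed.

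AKR1C3, a reductase of steroids and prostaglandins, had a narrow untreated spread, with 8.44 ± 0.05 (SD, n = 4). With human ERFE its log2 signal was 8.37, 8.19, 7.96 and 8.04, and with mouse ERFE 8.20, 8.28, 8.16 and 8.37. The 4 mouse ERFE arrays lay below all untreated ones, though the highest of them equalled the lowest untreated one at 2 decimals, and human ERFE replicate 1 overlapped the untreated range. The log2 fold changes were -0.30 (interval -0.51 to -0.10, limma adjusted p = 0.448) and -0.19 (-0.39 to 0.02, adjusted p = 0.482). Those of AKR1C2, a close paralogue that also reduces steroids, were -0.19 and -0.11 (adjusted p = 0.704 and 0.696). Its log2 signal was 12.35, 12.17, 12.43 and 12.40 in untreated cells, 12.07, 12.14, 12.19 and 12.21 with human ERFE and 12.30, 12.31, 12.25 and 12.06 with mouse ERFE. The AKR1C genes are so alike that a probe may read more than 1 of them, and 5 of the 6 AKR1C2 probes were detected on at most 1 array, so the split between AKR1C genes is uncertain.

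The other reductases had no unadjusted p under 0.05 at the probes tested. NQO1, the quinone reductase used most often as a readout of NRF2, lay between 13.82 and 14.06 on all 12 arrays, with log2 fold changes of -0.02 (interval -0.19 to 0.14) and -0.08 (-0.24 to 0.09). A second, dimmer NQO1 probe had group means of 7.45 ± 0.07 untreated, 7.05 ± 0.39 with human ERFE and 7.45 ± 0.15 with mouse ERFE (SD, n = 4 each). Its log2 fold change with human ERFE was -0.40 (limma unadjusted p = 0.027, adjusted p over all probes = 0.676). With mouse ERFE it was 0.002, so the 2 probes differed for human ERFE. CBR1, a carbonyl reductase, ranged from 7.54 to 8.42, with both extremes in the mouse ERFE group.

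**Figure D4:**
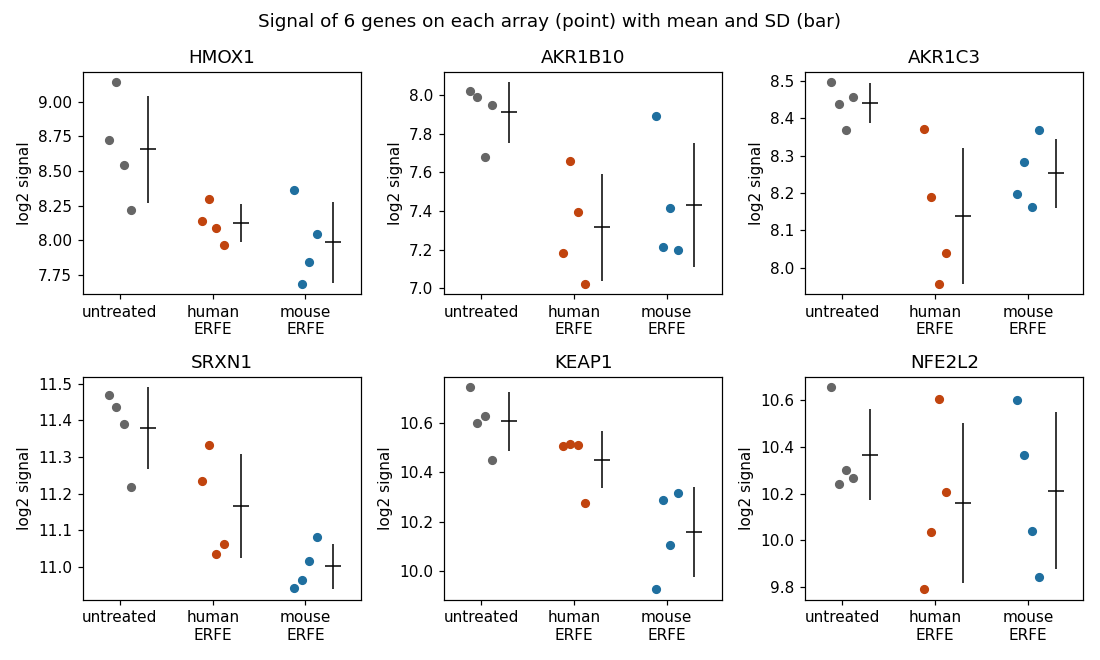
Points give the log2 signal of 6 genes on each array in the untreated, human ERFE and mouse ERFE groups, and the bar beside them the mean and SD of 4 arrays. The ERFE arrays of HMOX1, AKR1B10 and SRXN1 lie mostly below the untreated ones, KEAP1 does so in the mouse ERFE group, and NFE2L2 overlaps in all 3 groups; the vertical axes do not start at 0 and differ between panels.

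SRXN1, sulfiredoxin, which repairs over-oxidised peroxiredoxins, was lowest with mouse ERFE. The log2 signal was 11.47, 11.44, 11.39 and 11.22 on the untreated arrays, 11.24, 11.33, 11.04 and 11.06 with human ERFE and 10.94, 10.96, 11.02 and 11.08 with mouse ERFE. All mouse ERFE arrays lay below all untreated ones, and replicates 1 and 2 of human ERFE lay above untreated replicate 4. The log2 fold changes were -0.21 with human ERFE (interval -0.40 to -0.02, limma adjusted p = 0.650) and -0.38 with mouse ERFE (-0.57 to -0.19, adjusted p = 0.106), 1.16-fold and 1.30-fold lower. With mouse ERFE the adjusted p was 0.0315 with no background correction, 0.0310 with a variance trend and robust estimation, and 0.0452 without untreated replicate 4. Calls over all genes rose in the same settings, from 8 higher and 16 lower to 25 and 54, 19 and 46, and 75 and 81.

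The thioredoxin genes themselves were among the steadiest. TXN, the small protein disulfide reductase, had a range of 0.193 over the 12 arrays, and PRDX1, a peroxiredoxin that removes hydrogen peroxide, one of 0.189, the smallest of the 30 genes. Their log2 fold changes lay between -0.02 and 0.03. They were also the brightest of the 30 genes, with mean log2 signals of 14.34 and 14.22. Ranges were not compared at matched brightness. TXNRD1, the reductase that recharges thioredoxin, had a log2 signal of 12.29, 12.39, 12.36 and 12.28 on the untreated arrays, 12.39, 12.40, 11.92 and 12.32 with human ERFE and 12.09, 12.13, 12.24 and 12.22 with mouse ERFE. The mouse ERFE arrays lay just below the untreated ones, with a fold change of -0.16 on the log2 scale (limma adjusted p = 0.617). A second TXNRD1 probe, detected on all 12 arrays, went the other way. Its means were 9.60 ± 0.48 untreated, 10.10 ± 0.12 with human ERFE and 10.09 ± 0.07 with mouse ERFE (SD, n = 4 each), a difference of 0.49 in both comparisons (adjusted p over all probes = 0.632 and 0.362). The direction for TXNRD1 is therefore uncertain.

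Genes of glutathione supply and use had no unadjusted p under 0.05 against untreated cells. SLC7A11, the cystine importer that feeds glutathione synthesis, had a log2 signal of 6.36, 6.21, 6.46 and 6.18 on the untreated arrays, 6.74, 6.11, 6.28 and 6.40 with human ERFE and 6.47, 6.19, 5.53 and 5.78 with mouse ERFE. Mouse ERFE arrays 3-A4 and 3-B4 were the lowest of all 12. The log2 fold changes were 0.08 and -0.31 (limma adjusted p = 0.975 and 0.593). GCLC and GCLM, the catalytic and modifier subunits of glutamate-cysteine ligase, had -0.16 and -0.04 with human ERFE and -0.02 and -0.01 with mouse ERFE. GSR, which regenerates reduced glutathione, had 0.06 and 0.17, the latter with an interval of -0.01 to 0.34. GPX2, a glutathione peroxidase of epithelia, had -0.13 and 0.09.

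The genes of NADPH supply and the pentose phosphate path all had negative differences within their spread. TKT and TALDO1, of the non-oxidative arm of the pentose phosphate path, had log2 fold changes of -0.02 and -0.05 with human ERFE and -0.11 and -0.04 with mouse ERFE. PGD, which yields NADPH in the oxidative arm, had -0.05 and -0.16, and its mouse ERFE arrays split into 11.73 and 11.76 for replicates 1 and 2 and 12.10 and 12.07 for 3-A4 and 3-B4. TKT split in the same way, at 11.49 and 11.53 against 11.74 and 11.82. ME1, cytosolic malic enzyme, had -0.10 and -0.06, with human ERFE replicate 3 at 10.54 and the other human ERFE arrays from 9.92 to 9.97.

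The transporters and conjugation enzymes gave no call either. ABCC2, the canalicular export pump for conjugates, ranged from 8.98 to 9.21 untreated, 8.75 to 9.05 with human ERFE and 8.87 to 9.05 with mouse ERFE, with log2 fold changes of -0.16 and -0.12. ABCC4, an exporter at the sinusoidal face, had -0.12 and -0.13, and a second probe gave -0.12 and -0.09. ABCC3, a sinusoidal export pump, had 0.06 and 0.14. UGDH, which makes the sugar donor for glucuronidation, had -0.23 and -0.05 with a range of 0.879 over the arrays, and its untreated replicate 1, at 11.56, was the highest of the 12. PIR, an iron-binding nuclear protein, had 0.05 and 0.06.

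**Figure D5:**
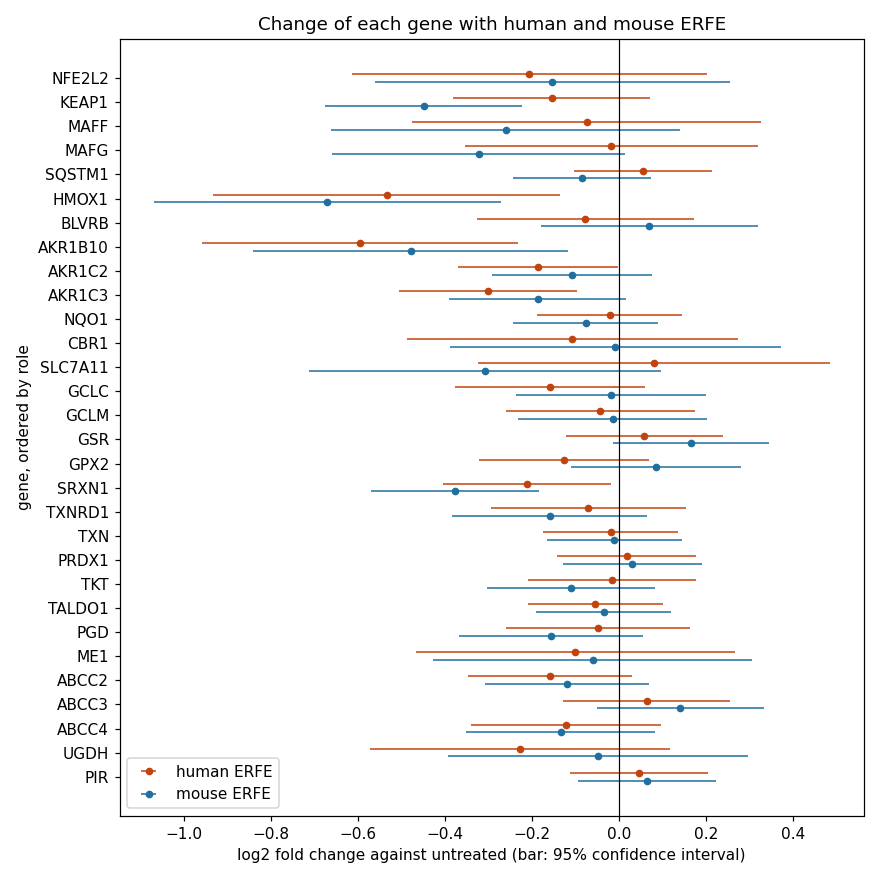
Points are log2 fold changes against untreated cells (horizontal axis) for each of the 30 genes (vertical axis, ordered by role), with 95% confidence intervals of the fit over all genes as bars. Most points lie just left of 0, and the intervals of HMOX1, AKR1B10 and SRXN1 exclude 0 for both proteins before adjustment for the number of genes.

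Human and mouse ERFE were compared directly in the same fit. Of 30 genes 2 had an unadjusted p under 0.05, against 4.92% of all genes. KEAP1 was 0.29 higher on the log2 scale with human than with mouse ERFE (interval 0.07 to 0.52, limma adjusted p = 0.836) and GPX2 had -0.21 (-0.41 to -0.02, adjusted p = 0.954). For HMOX1 the difference between the proteins was 0.14 (interval -0.26 to 0.54), for AKR1B10 -0.12 (-0.48 to 0.25) and for SRXN1 0.17 (-0.03 to 0.36). A difference between human and mouse ERFE was thus not shown for any NRF2 gene, and these intervals bound what 4 arrays a group could have missed. With median centring the median of all genes in this comparison was 0.15 and that of the NRF2 genes 0.11, against 0.01 and -0.02 in the main scaling.

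The precision sets how much of a change could have gone unseen. The 95% intervals against untreated cells reached 0.155 to 0.409 to either side of the log2 fold change. With human ERFE the interval lay within 0.5 of 0 for 25 of 30 genes, the others being HMOX1, AKR1B10, AKR1C3, UGDH and NFE2L2. With mouse ERFE it did for 22 of 30. The median SD within groups was 0.132 for the NRF2 genes and 0.175 over all genes. The NRF2 genes were detected on 12 of 12 arrays, while all genes include some detected on as few as 4. The 2 sets were not matched for brightness.

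The members' median difference from the untreated mean, taken array by array, was 0.02, 0.00 and 0.02 for untreated replicates 1 to 3 and -0.09 for untreated replicate 4. The human ERFE arrays had -0.10, -0.09, -0.07 and -0.06 and the mouse ERFE arrays -0.06, -0.04, -0.08 and -0.08. Untreated replicate 4 thus lay among the ERFE arrays, and no NRF2 gene had all 8 ERFE arrays below all 4 untreated ones, which 0.762% of all genes did.

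NRF2 targets and oxidant defence genes outside the 32 had medians near 0. Of 35 other listed NRF2 targets 27 were measured, 0 passed, and the medians were 0.03 with human and 0.04 with mouse ERFE. An unadjusted p under 0.05 was found for 5 of them with human ERFE, 4 with a higher mean, and for 3 of 27 with mouse ERFE, all with a higher mean, beside the 6.98% and 11.5% of all genes given above. Of these, GSTA1, GSTA2 and MGST3 had an unadjusted p under 0.05 in both comparisons, each with a higher mean. GSTA2, an alpha-class glutathione transferase abundant in hepatocytes, had a log2 signal of 7.52, 7.37, 7.40 and 7.33 untreated, 7.98, 7.84, 7.51 and 7.78 with human ERFE and 7.91, 7.94, 8.09 and 7.73 with mouse ERFE. Its log2 fold changes were 0.37 and 0.51 (limma adjusted p = 0.391 and 0.0744), and its other probes gave 0.05 and -0.15 with human ERFE and 0.38 and 0.07 with mouse ERFE. GSTA1, a near-identical paralogue whose transcript the same probe may read, had 0.31 and 0.35, and MGST3, a microsomal glutathione transferase, 0.19 and 0.16. For GSTA1 and MGST3 every ERFE array lay above every untreated one, a separation that 0.854% of all genes showed. Of 16 other antioxidant enzymes such as catalase and the superoxide dismutases, 14 were measured and 0 passed, with medians of -0.00 and -0.02. Of 11 other NRF2 regulators 7 were measured and 0 passed, with medians of -0.07 and -0.04.

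The arrays and cells were checked as a whole. Between 34.5% and 39.1% of probes were detected per array. All 9 measured hepatocyte markers of 10 listed, such as ALB and APOA1, were detected on 12 of 12 arrays, at a mean log2 signal from 12.7 to 12.9. Of 12 macrophage and leukocyte markers 7 were measured, and PTPRC, CD163 and LAPTM5 were detected on 0 arrays. The mean log2 signal of the 7 was 7.55 to 8.60 untreated, 7.58 to 8.16 with human ERFE and 7.55 to 8.25 with mouse ERFE. That mean hides markers that varied widely. On the untreated arrays TYROBP ran from 4.81 to 8.26 and CD83 from 6.05 to 9.01. Both were lowest there on replicate 4, as MHC class II was. LYZ, the brightest, ran from 13.41 to 13.62. TYROBP had log2 fold changes of -1.03 and -1.25 and CD83 -0.55 and -0.92, with intervals that included 0. Of the 7 markers 5 were below 0 in each comparison. CD14, a surface protein of monocytes that hepatocytes also make, had -0.30 and -0.31 (limma adjusted p = 0.426 and 0.210). All 6 targets of bone morphogenetic protein signalling, chosen to check that the treatment acted, had a lower mean with either protein. By limma 5 passed with human ERFE and 4 with mouse ERFE, against 0.248% and 0.22% of all genes. HAMP, which encodes hepcidin, led them at -1.85 and -1.81 (limma adjusted p = 0.000722 and 0.00193). It was detected on 4 untreated arrays but on 1 human ERFE and 1 mouse ERFE array. Its signal with ERFE thus lay near background, which limits the size of its fold change.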

How the data were processed

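Signal intensity and a detection p-value per probe were deposited by the authors for 12 arrays of 47323 probes, linear by the file headers and by their values. The tools lumi and limma appear in the submitters' processing notes, neither with a version. Array medians ran from 139.5 to 186.3, and the other deposited tables held the same values (567876 of 567876 equal). Of the probes, 30113 had 1 gene symbol, 8 several and 17202 none in the annotation supplied. All 52 probes of the NRF2 genes matched RefSeq by Entrez ID, and 40 were detected on at least 4 arrays.

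Here neqc (limma 3.58.1, statmod 1.5.0, R 4.3.3) inferred the negative controls from detection p-values, added an offset of 16 and quantile-normalized the arrays. A model with 3 groups was fitted to all 12 arrays over 10891 genes by lmFit and eBayes, with 9 residual degrees of freedom and 3.56 prior ones. P-values are limma's, two-sided, and were adjusted by Benjamini-Hochberg over all genes with a threshold of 0.05. The pipeline was tested on simulated data. Lists are described by counts and medians, with no test. Members and lists were chosen with earlier results of these data known. Members named with full statistics had an unadjusted p under 0.05, with HMOX1, NFE2L2 and KEAP1 always given, and genes of other lists are named where that held in both comparisons with untreated cells. CBR1, SLC7A11, MAFG, TXNRD1, PGD and TKT are given by array or range as descriptions, chosen after their values were seen. Fold changes of dim genes are understated by the offset.

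The groups share replicate numbers. Deviations from group means correlated from -0.318 to 0.332 over 12 pairs of arrays with the same number (median -0.06). Over 36 other pairs they correlated from -0.337 to 0.392 (median 0.01), so no pairing by replicate number was seen. The title codes also hold a letter and a number, whose meaning the labels do not give. They were tried as blocks. Correlations between arrays were not summarised by code letter or code number. Untreated replicate 4 has the same code number as mouse ERFE arrays 3-A4 and 3-B4. The mouse ERFE arrays 3-A4 and 3-B4 differed with an SD of 0.262, the second smallest of 18 pairs within groups (0.259 to 0.384), and were kept as 2.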

Additional observations from a re-analysis of the deposited data

Results flagged for a closer look

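In 4 of 90 combinations of gene and group, 1 array stood far from the other 3 for its group's range; chance alone gives about 1 in 20. NFE2L2 was 10.66 on untreated replicate 1, against 10.24 to 10.30 on the others. KEAP1 was 10.28 on human ERFE replicate 4, against 10.51 to 10.52. ME1 was 10.54 on human ERFE replicate 3, against 9.92 to 9.97. TALDO1 was 13.23 on mouse ERFE array 3-B4, against 13.17 to 13.18. All are log2 signals, and their causes were not tested.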

How the results depend on the processing

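Over 36 results and 26 settings, 907 of 928 values kept their side of the threshold or, for a median, moved by less than the spread between arrays; the cause of the other changes was not tested. Of these results 28 were fold changes of single genes, chosen by the rule given above for full statistics, and none of them turned direction. Other members did turn. With human ERFE 24 of 30 were below 0 in the main scaling and 17 with median centring. Between the proteins it was 18 and 4. The median between the proteins, -0.02, turned above 0 in 4 settings, namely median centring, array weights, and without human or mouse ERFE replicate 1. With human ERFE and between the proteins 0 of 30 NRF2 genes passed in any setting. With mouse ERFE 2 passed with no background correction and 2 with a variance trend and robust estimation (KEAP1 and SRXN1 each time), and 0 to 2 when 1 array was left out, the 2 being HMOX1 and SRXN1 without untreated replicate 4. For the mean of both groups 0 to 1 passed when 1 array was left out (HMOX1, without the same array). Calls over all genes with mouse ERFE, 8 higher and 16 lower in the main fit, rose in the same settings. They were 25 and 54 with no background correction, 19 and 46 with trend and robust estimation, and 75 and 81 without untreated replicate 4. With median centring the median log2 fold change of the NRF2 genes was -0.028 for human ERFE, -0.16 for mouse ERFE and 0.11 between them. Leaving out 1 array moved it from -0.113 to -0.070 for human ERFE, from -0.110 to -0.060 for mouse ERFE, from -0.027 to 0.028 between them and from -0.129 to -0.071 for the mean of both. GSTA2 passed with mouse ERFE in 3 settings (adjusted p = 0.046, 0.0433 and 0.0325 with no background correction, probes detected on all 12 arrays, and array weights). Over all settings, 17 to 25 of 30 genes were below 0 with human ERFE and 20 to 25 with mouse ERFE. With the replicate block 0 of 30 NRF2 genes passed, and KEAP1 with mouse ERFE had -0.51 (adjusted p = 0.0762) and HMOX1 -0.74 (adjusted p = 0.103). The number of genes called over the whole array with mouse ERFE moved from 24 to between 0 (title number as a block) and 156 (without untreated replicate 4), and with human ERFE from 27 to between 5 (title number as a block) and 52 (without untreated replicate 4). The fit on 2 groups only was not run for the mean of both. The number of arrays limits the precision, and dim probes such as those of SLC7A11 and MAFG lie near background.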
